A study of Homo sapiens with 9 samples.

Results

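The 76 genes described here are long noncoding RNAs and the noncoding host genes of small RNAs that were measured at an appreciable level in human embryonic stem cells. They were chosen by name and level. The symbol had to read LINC with a number, MIR with a name ending in HG, or SNHG with a number, and the mean over all 9 arrays had to be 5.5 or more on the log2 intensity scale. Of 881 genes with such names, which 1141 probe sets measured, 76 passed, against 10964 of all 19775 genes. They comprise 69 of 840 LINC genes, 4 of 11 SNHG genes and 3 of 30 microRNA host genes, and the gene table classes all 76 as long noncoding RNA. A further 49 genes with such names appear only in probe sets of several genes and were not used. The level was taken over all 3 conditions with equal weight, so it did not use the differences between them.

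A long noncoding RNA is a long transcript, often spliced and polyadenylated like a messenger RNA, that has no long reading frame. A LINC symbol marks an intergenic transcript named by number, usually because no function had been assigned. SNHG genes carry small nucleolar RNAs in their introns, which guide the chemical modification of ribosomal RNA. The spliced exons are often a byproduct that is degraded by nonsense-mediated decay. MicroRNA host genes likewise release a microRNA hairpin from their transcript, which is cut by DROSHA and DICER1 and loaded onto an Argonaute protein. In embryonic stem cells several long noncoding RNAs are known for expression limited to the pluripotent state, and others are induced by p53.

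The cells were of the established line WA09. One group had been given DOX (doxorubicin, which poisons topoisomerase II and breaks DNA) for 5 h, and another had been given retinoic acid (RA, a differentiation signal, at 1 µM) for 2 days in medium to which no FGF was added. Pluripotent cells were the untreated comparison. Each condition had 3 one-colour Affymetrix arrays. The series asks how p53 acts during DNA damage and during differentiation. The labels do not say which arrays came from cells kept on irradiated mouse fibroblasts and which from feeder-free cultures, nor whether the arrays within a condition were grown separately. The p-values therefore reflect array-to-array spread, which may be only technical. The RA cells differed from the pluripotent cells in FGF as well as in RA.

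Genes known to respond to each treatment were high where the labels name it. CDKN1A, a cell cycle inhibitor and p53 target, was 13.1-fold higher after DOX, and MDM2, the ligase that degrades p53, was 4.06-fold higher. Both were also called higher after RA, CDKN1A 1.89-fold (limma adjusted p = 0.00063) and MDM2 1.34-fold (limma adjusted p = 0.016). CYP26A1, which breaks down retinoic acid, rose by 1.64 on the log2 scale after RA, and the retinoic acid receptor RARB rose by 2.21. Each array had its median probe set at 4.62 to 4.68, and no detection call was given, so the level of 5.5 is a choice and not a test of detection. The third pluripotent array stood apart from the other pluripotent arrays, with a limma array weight of 0.512 against 1.52 and 1.59. Over 6 pluripotency markers the mean level was 11.63 to 11.84 on DOX arrays, 11.75 to 11.83 on RA arrays and 11.95 to 12.03 on pluripotent arrays. POU5F1 and TDGF1 were also listed but not measured. The markers did not move together. After RA, PRDM14 (−1.29) and NANOG (−0.34) were called lower. SOX2 (−0.10), LIN28A (0.25), DNMT3B (0.23) and ZFP42 (0.10) were not called. After DOX only SOX2 was called (−0.46). Over 8 fibroblast markers the mean level was 6.62 to 6.71 on DOX arrays, 6.45 to 6.57 on RA arrays and 6.35 to 6.43 on pluripotent arrays. Of these 8, COL1A1 (mean 11.06), COL1A2 (9.34) and THY1 (9.26) were bright and LUM (3.16) and POSTN (3.56) were near the floor. COL1A1 was higher by 1.08 after DOX and 1.00 after RA, and THY1 was higher by 0.33 after DOX and lower by 0.37 after RA. COL3A1 was called higher after RA only, by 0.57 (limma adjusted p = 0.006). The rest of the 8 were not called after either treatment. Over 5 trophoblast and amnion markers the mean level was 5.21 to 5.43 on DOX arrays, 6.27 to 6.57 on RA arrays and 4.79 to 4.82 on pluripotent arrays. After RA, TFAP2A rose by 4.55, GATA3 by 3.2 and HAND1 by 0.90, and KRT7 (−0.29) and CGA (−0.02) were not called. After DOX, GATA3 (1.34) and TFAP2A (0.85) were called higher. The 3 neuroectoderm markers averaged 6.48 to 6.61 on DOX arrays, 6.03 to 6.23 on RA arrays and 6.58 to 6.85 on pluripotent arrays. Of these, OTX2 fell by 1.56 after RA (limma adjusted p = 0.00022), and PAX6 (−0.30) and SOX1 (0.25) were not called. None of the 3 was called after DOX. The part of these shifts in the changes of the members was not tested. In bulk RNA, fewer cells of a type and less RNA per cell cannot be told apart.

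The microRNAs released from the 3 host genes are shown to identify them, with the seed (bases 2 to 8, which pairs with targets) in capitals, from RefSeq on GRCh38.p14. The arrays measured the host transcripts and not these mature microRNAs.
hsa-miR-210-3p (from MIR210HG, chr11:568112-568133, minus strand): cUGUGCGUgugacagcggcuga
hsa-miR-210-5p (from MIR210HG, chr11:568150-568171, minus strand): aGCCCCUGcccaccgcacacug
hsa-miR-1915-3p (from MIR1915HG, chr10:21496576-21496595, minus strand): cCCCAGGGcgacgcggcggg
hsa-miR-1915-5p (from MIR1915HG, chr10:21496609-21496630, minus strand): aCCUUGCCuugcugcccgggcc
hsa-miR-3936 (from MIR3936HG, chr5:132365513-132365534, minus strand): uAAGGGGUguauggcagaugca
None of the 5 seeds was shared among them. The seed of hsa-miR-1915-3p was carried by 1 other mature microRNA in the table, and the other seeds by 0.

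Ribosomal protein genes and many snoRNA host genes start transcription in a pyrimidine tract, so the 30 bases around the annotated start are shown for the 4 SNHG genes, SNHG33 having 2 annotated starts, with the longest run of C and T in capitals.
SNHG32 (chr6:31834906-31834935, plus strand): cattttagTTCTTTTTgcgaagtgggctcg
SNHG19 (chr16:2155339-2155368, minus strand): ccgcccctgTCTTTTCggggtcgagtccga
SNHG17 (chr20:38435309-38435338, minus strand): gtgtggcctcagTCCTTCgccgtccctcgc
SNHG33 (chr3:183447598-183447627, plus strand): gaggCTTTTacaccgaacggaggtgatgtg
SNHG33 (chr3:183447641-183447670, plus strand): acgcagccgcaCTTCaccaagcggccggtc
The runs were 8 bases long in SNHG32, 7 in SNHG19, 6 in SNHG17, and 5 and 4 at the starts of SNHG33. Over all 71 start windows of the members the runs were 1 to 13 bases long, with a median of 4. The motif CTTTC, read on the transcribed strand within 10 bases of the start, was in the promoters of 45.2% of 62 ribosomal protein genes and 4.05% of all 27305 genes in the RefSeq promoter table. It was in 1 of the 60 members with a promoter there (1.67%), and in 0 of 4 SNHG members. Only these exact letters were searched, so other pyrimidine runs, such as those printed above, did not count. The 0 of 4 therefore does not show that the SNHG genes lack such a tract.

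DOX lowered 17 of the 76 RNAs and raised none at an adjusted p under 0.05 (limma, Benjamini-Hochberg over all genes). The 17 are 22.4% of the members. Among all 19775 genes 15.3% were called after DOX, 5.67% higher and 9.6% lower, and among the 10964 genes at the same level 23.7% were called, 7.96% higher and 15.7% lower. The total share was near that of genes at this level. By direction, 22.4% of the members were lower and 0% higher. At an unadjusted p under 0.05, 22 members were lower and 2 higher. The median change of the members was −0.053 on the log2 scale, against −0.063 for genes at the level and −0.005 for all genes. The changes ran from −1.79 to 0.26. Of 239 other long noncoding RNA genes at the level, 23% were lower and 2.93% higher, and of 10502 protein-coding genes 15.6% were lower and 8.14% higher.

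**Figure D1:**
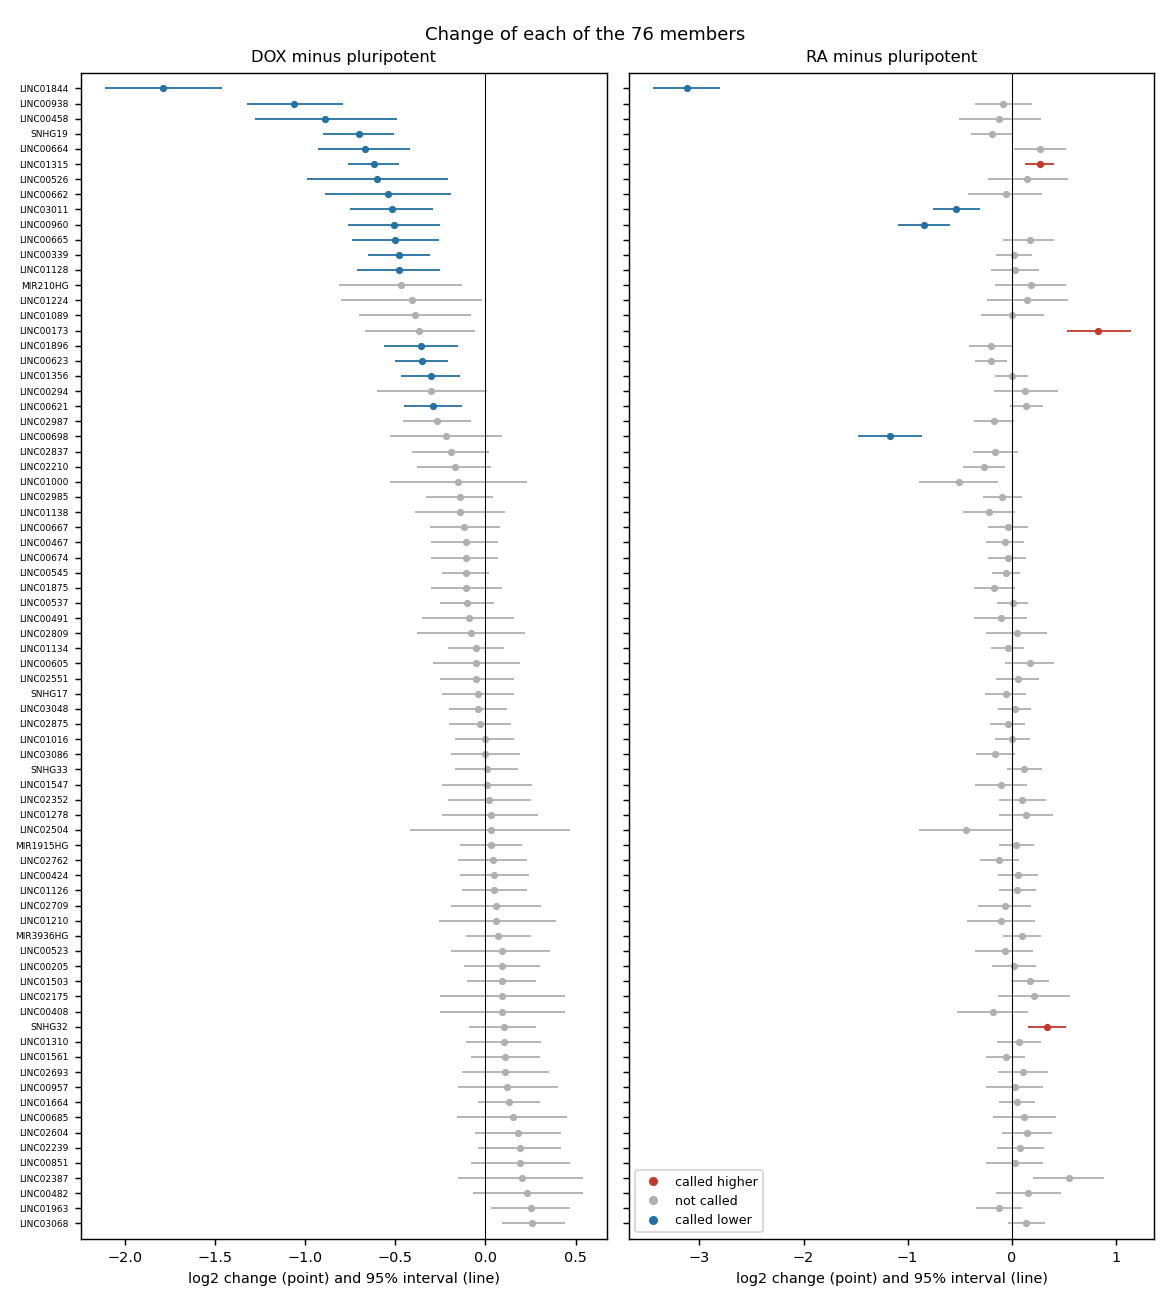
Log2 change of each of the 76 RNAs (point) with its 95% interval (line), DOX minus pluripotent in the left panel and RA minus pluripotent in the right, both in order of the DOX change. In the left panel 17 RNAs are called lower and 0 higher. In the right panel 4 are called lower and 3 higher.

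LINC01844, an intergenic RNA from chromosome 5, had the largest change of the members after both treatments. It measured 6.27, 6.38 and 6.16 on DOX arrays and 4.84, 5.02 and 4.93 on RA arrays, against 8.18, 8.33 and 7.66 on pluripotent arrays. The 3 groups did not overlap, and the RA arrays were the lowest. The fall after DOX was 1.79 ± 0.15 on the log2 scale (SE, n = 3 arrays a group), or 3.45-fold (limma adjusted p = 1.6e-05). After RA it was 3.12 ± 0.15, or 8.71-fold (limma adjusted p = 6.3e-07). Between RA and DOX it was a further 1.34 lower (limma adjusted p = 7.6e-05). A single probe set measures it. Its mean of 4.93 after RA lies below the level of 5.5 that chose the members, close to the median probe set, where RMA compresses differences. The nearest measured protein-coding gene, ARHGAP26, differed by 0.02 after DOX.

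LINC00938, from chromosome 12, was the other member lowered at least 2-fold by DOX, as 0.392% of genes at the level were. It measured 6.34, 6.42 and 6.24 on DOX arrays and 7.38, 7.37 and 7.19 on RA arrays, against 7.54, 7.55 and 7.09 on pluripotent arrays. Every DOX array lay below every other array, and the RA and pluripotent arrays overlapped. The change was −1.06 ± 0.12 after DOX (limma adjusted p = 0.00018) and −0.08 after RA. It rested on 1 of 4 probe sets, the other 3 being dim at 4.2 or less and not called, and the mean of all 4 gave −0.34 with the call kept. ARID2, a chromatin remodelling subunit whose gene lies next to it, changed by −0.83 after DOX (limma adjusted p = 0.0019) and by 0.11 after RA.

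The promoters of these 2 RNAs, 250 bases before to 50 after the annotated start (RefSeq, GRCh38.p14), are shown because the RNAs changed most after DOX. CTTTC near the start is in capitals.
LINC01844 (chr5:142745350-142745649, plus strand): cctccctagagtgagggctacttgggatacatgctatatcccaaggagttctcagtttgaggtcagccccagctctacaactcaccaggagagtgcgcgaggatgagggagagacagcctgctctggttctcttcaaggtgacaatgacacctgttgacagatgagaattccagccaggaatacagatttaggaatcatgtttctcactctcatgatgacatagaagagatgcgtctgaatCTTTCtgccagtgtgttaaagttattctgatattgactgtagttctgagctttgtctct
LINC00938 (chr12:45727872-45728171, minus strand): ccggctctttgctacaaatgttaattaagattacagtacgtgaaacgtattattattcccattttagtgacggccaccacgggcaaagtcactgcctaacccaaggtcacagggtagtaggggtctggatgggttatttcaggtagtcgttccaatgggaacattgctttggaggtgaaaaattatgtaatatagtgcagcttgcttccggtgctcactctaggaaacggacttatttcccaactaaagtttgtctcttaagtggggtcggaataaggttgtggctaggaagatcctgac
The consensus half-site of p53 was searched on both strands in the 300 bases of each promoter. Counted by gene, it was in a promoter of 0 of the 15 RNAs lowered by DOX that have one, of 4 of all 60 such members (6.67%) and of 8.06% of all 27305 genes. These matches describe letters in a window and not binding.

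LINC00458, a transcript known for its enrichment in human embryonic stem cells, was the third of the lowered RNAs. It measured 6.09, 5.97 and 6.16 on DOX arrays and 7.20, 6.76 and 6.57 on RA arrays, against 7.13, 7.18 and 6.57 on pluripotent arrays. The DOX arrays lay below all others, and the RA arrays spanned about the same range as the pluripotent ones. DOX changed it by −0.89 ± 0.18 (limma adjusted p = 0.0068), and RA by −0.12. A second, dimmer probe set gave −1.12 after DOX and was also called, the only case among the 8 lowered RNAs with several probe sets in which another one was called the same way.

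**Figure D2:**
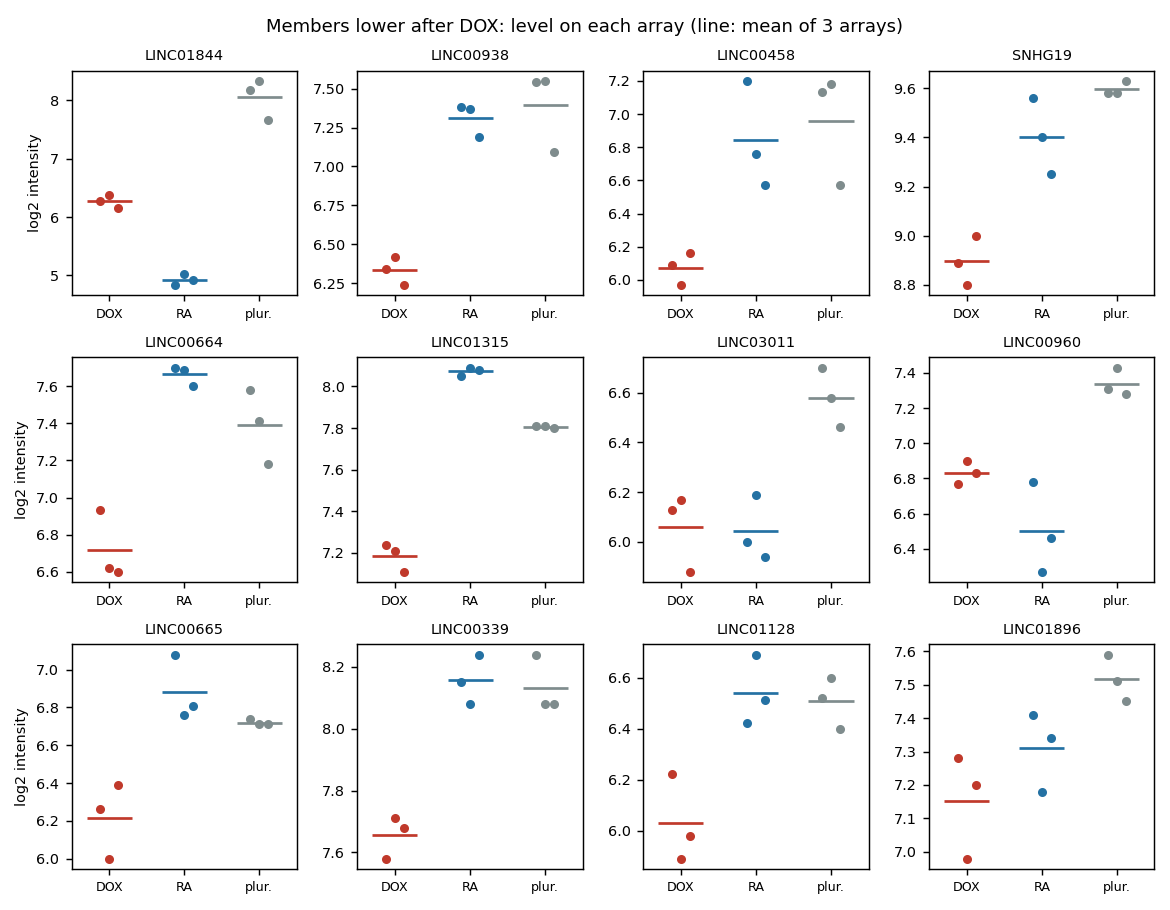
Log2 intensity of 12 RNAs called lower after DOX, on each of the 3 DOX, 3 RA and 3 pluripotent arrays (points), with group means (lines). In all 12 panels the DOX arrays lie below the pluripotent arrays. All RA arrays lie below the pluripotent arrays for LINC01844, SNHG19, LINC03011, LINC00960 and LINC01896, and overlap or lie above them in the other panels.

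SNHG19, the host of the box C/D snoRNA SNORD60, was the only SNHG gene among the 17. It measured 8.89, 8.80 and 9.0 on DOX arrays and 9.56, 9.40 and 9.25 on RA arrays, against 9.58, 9.58 and 9.63 on pluripotent arrays. The DOX arrays were the lowest 3 of the 9. The change was −0.70 ± 0.09 after DOX (limma adjusted p = 0.00037) and −0.19 after RA. Its only probe set carries the suffix x_at, which marks probes that can cross-hybridise to related sequences, as do those of LINC00623 and LINC00621. Of 7 members measured by such a probe set, 3 were lowered, against 22.4% of all members, and 7 are too few to compare.

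LINC00664 and LINC01315 fell after DOX, and their RA arrays lay above all pluripotent arrays. LINC00664 measured 6.93, 6.62 and 6.6 on DOX arrays and 7.70, 7.69 and 7.60 on RA arrays, against 7.58, 7.41 and 7.18 on pluripotent arrays. DOX changed it by −0.67 ± 0.11 (limma adjusted p = 0.0024), or by −0.41 as the mean of its 3 probe sets, and its RA difference of 0.27 was not called (limma adjusted p = 0.24). LINC01315 measured 7.24, 7.21 and 7.11 on DOX arrays and 8.05, 8.09 and 8.08 on RA arrays, against 7.81, 7.81 and 7.80 on pluripotent arrays. Its 3 groups were tight and did not overlap, with RA above pluripotent and DOX below. The changes were −0.62 ± 0.06 after DOX (limma adjusted p = 8.4e-05) and 0.27 ± 0.06 after RA (limma adjusted p = 0.027). It was the only member called in opposite directions after the 2 treatments.

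LINC00960 and LINC03011 were lowered by both treatments, as was LINC01844. LINC00960 measured 6.77, 6.90 and 6.83 on DOX arrays and 6.78, 6.27 and 6.46 on RA arrays, against 7.31, 7.43 and 7.28 on pluripotent arrays. Its change was −0.51 ± 0.11 after DOX (limma adjusted p = 0.012) and −0.84 ± 0.11 after RA (limma adjusted p = 0.0011). A second probe set was called lower after RA at −0.42, and as the mean of 3 probe sets the values were −0.23 after DOX, no longer called, and −0.49 after RA. The DOX call was also lost without the second pluripotent array (−0.46). LINC03011 measured 6.13, 6.17 and 5.88 on DOX arrays and 6.00, 6.19 and 5.94 on RA arrays, against 6.70, 6.58 and 6.46 on pluripotent arrays. Both treated groups lay below every pluripotent array by about the same amount, with changes of −0.52 ± 0.10 after DOX and −0.54 ± 0.10 after RA. DOX and RA share the pluripotent arrays, so the 2 changes are not independent.

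The other 9 RNAs lowered by DOX changed by −0.29 to −0.60, with adjusted p from 0.0016 to 0.044. LINC00339 measured 7.58, 7.71 and 7.68 on DOX arrays and 8.15, 8.08 and 8.24 on RA arrays, against 8.24, 8.08 and 8.08 on pluripotent arrays, a clear gap below both other groups. LINC00665, whose transcript is known to encode a micropeptide in breast cancer cells, measured 6.26, 6.00 and 6.39 on DOX arrays, 7.08, 6.76 and 6.81 on RA arrays and 6.74, 6.71 and 6.71 on pluripotent arrays. Of its 4 probe sets only the brightest was called, the next brightest gave 0.01, and the mean of all gave −0.23, no longer called. LINC01896 measured 7.28, 6.98 and 7.20 on DOX arrays and 7.41, 7.18 and 7.34 on RA arrays, against 7.59, 7.51 and 7.45 on pluripotent arrays. Its call at −0.36 was also lost as the mean of its probe sets (−0.13) and without the second DOX array, the first pluripotent array or the second pluripotent array. The neighbour of LINC01896, the transcription factor gene SALL3, changed by −0.66 after DOX (limma adjusted p = 0.0035).

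LINC01128 changed direction with the choice of probe set. Its brightest probe set measured 6.22, 5.89 and 5.98 on DOX arrays and 6.42, 6.69 and 6.51 on RA arrays, against 6.52, 6.6 and 6.40 on pluripotent arrays, a change of −0.48 ± 0.10 after DOX (limma adjusted p = 0.0099). The other 5 probe sets were not called, and their changes ran from −0.03 to 0.24. The mean of all 6 gave 0.01, and the brightest one left without the suffixes x_at and s_at gave 0.11. For LINC00526 and LINC00662 the lowest pluripotent array, the third, lay within the range of the DOX arrays, so these calls at −0.60 and −0.54 came from groups that overlapped. When every probe set was tested alone, neither was called (limma adjusted p = 0.057 and 0.062).

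The third pluripotent array was the lowest of its group for 11 of the 17 lowered RNAs, and for 31 of all 76 members. Without it 20 members were called lower and 2 higher after DOX, and LINC01844 gave −1.98 and LINC00938 −1.21. Leaving that array out also raised the lower calls over all 19775 genes from 1898 to 2208, and the higher calls from 1121 to 1143. Across the groups, 20 members had DOX arrays all below the pluripotent arrays, and 2 had them all above. Among all genes at the level 28% did not overlap on the lower side and 13.8% on the higher side.

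The lowered RNAs were mostly bright. Of the 38 members above the median member level of 6.35, 16 were lowered, and of the 38 below it, 1. Among all genes at the level, 17% of those at or above 6.35 were lower and 9.92% of those below it. The members at the head of the range by mean level were SNHG32 at 10.27, LINC00623 at 9.38, SNHG19 at 9.30, LINC00621 at 8.98 and LINC01000 at 8.45. Just inside the threshold were LINC01126 at 5.55, LINC01875 at 5.53 and LINC00408 at 5.52, and just outside were LINC01342 at 5.49, LINC02688 at 5.46 and LINC01718 at 5.45. Levels of different probe sets were not compared as amounts of RNA. In 67 members the mean was 5.5 or more in every condition. Of 59 members not called after DOX, 50 had a 95% interval wholly within 0.5 of 0 on the log2 scale, so larger changes are outside those intervals. The standard errors ran from 0.06 to 0.20.

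**Figure D3:**
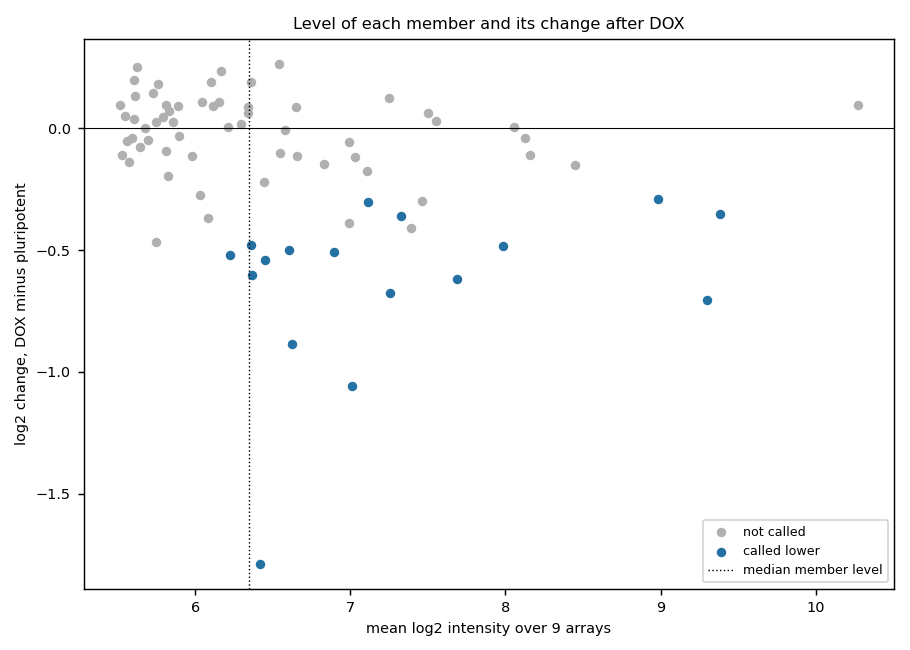
Mean log2 intensity over 9 arrays (horizontal) and log2 change after DOX (vertical) of each member, with RNAs called lower in blue and the median level of 6.35 as a dotted line. Of the lowered RNAs, 16 lie to the right of that line and 1 to its left.

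RA changed fewer of these RNAs. It raised 3 and lowered 4, which is 9.21% of the members, against 6.47% of all genes (3.16% higher, 3.32% lower) and 10.2% of genes at the level (4.73% higher, 5.45% lower). The share was near that of genes at the level. Of the 239 other long noncoding RNA genes, 2.51% were higher and 7.11% lower. At an unadjusted p under 0.05, 5 were higher and 7 lower, and the median change was 0.005. Among members not called after RA, 59 of 69 had an interval within 0.5 of 0.

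LINC00698 fell after RA and was not called after DOX. It measured 5.82, 5.67 and 5.72 on RA arrays and 7.05, 6.61 and 6.40 on DOX arrays, against 7.03, 6.87 and 6.80 on pluripotent arrays. The RA arrays lay below all others, and the DOX arrays overlapped the pluripotent ones. The RA change was −1.17 ± 0.14, or 2.25-fold lower (limma adjusted p = 0.00044), and the difference between RA and DOX was −0.95 (limma adjusted p = 0.00066). RA also lowered LINC01844, LINC00960 and LINC03011, as described.

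LINC00173 had the largest rise of the members after RA. It measured 6.80, 6.76 and 6.72 on RA arrays and 5.68, 5.63 and 5.36 on DOX arrays, against 6.28, 5.70 and 5.79 on pluripotent arrays. All RA arrays lay above all others. The rise was 0.83 ± 0.14 (limma adjusted p = 0.0041), 1.78-fold, and 0.52 as the mean of its 2 probe sets. Against DOX it was 1.2 higher (limma adjusted p = 0.00012), or 0.68 higher as the mean of both probe sets. SNHG32, the host of SNORD48 and SNORD52, measured 10.51, 10.46 and 10.42 on RA arrays and 10.28, 10.14 and 10.24 on DOX arrays, against 10.13, 10.26 and 9.99 on pluripotent arrays. Its rise of 0.34 ± 0.08 (limma adjusted p = 0.034) and that of LINC01315 were small. SNHG32 lost its call without any 1 of the RA arrays or without pluripotent array 1 or 3, and LINC01315 without any 1 of the RA or pluripotent arrays. Both lost it when every probe set was tested alone (limma adjusted p = 0.057 for SNHG32 and 0.052 for LINC01315).

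**Figure D4:**
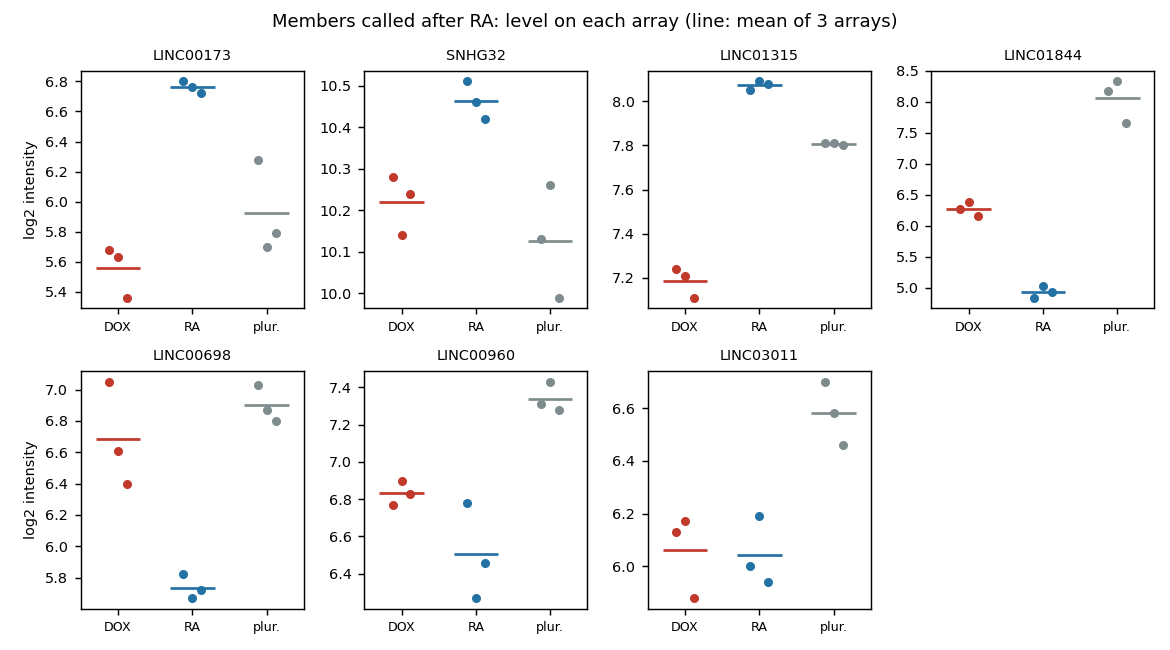
Log2 intensity of the 7 RNAs called after RA, on each DOX, RA and pluripotent array (points), with group means (lines). LINC00173, SNHG32 and LINC01315 have their RA arrays above the pluripotent arrays, and LINC01844, LINC00698, LINC00960 and LINC03011 have them below.

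Set against DOX directly, RA left 15 members higher and 3 lower, 23.7% of the members. Among genes at the level, 32.9% were called between RA and DOX (20.2% higher, 12.7% lower), and among all genes 21.2% (12.6% higher, 8.62% lower). Of the 239 other long noncoding RNA genes, 23% were higher and 5.44% lower. Of the 17 RNAs lowered by DOX, 11 were higher in RA than in DOX, 1 was lower (LINC01844) and 5 were not called. The higher ones included LINC00938 (0.98), LINC00664 (0.94), LINC01315 (0.89) and LINC00458 (0.77), all on the log2 scale. With every probe set of a gene averaged, LINC00938 gave 0.30, LINC00664 0.61, LINC00458 0.45 and LINC01315, which has 1 probe set, 0.89, all still called. LINC01963 was lower in RA than in DOX by 0.37 (limma adjusted p = 0.021), with 5.58, 5.32 and 5.49 on RA arrays, against 5.67, 6.03 and 5.80 on DOX arrays. That call was lost without either the second RA array or the second DOX array. The DOX arrays enter both this comparison and that with pluripotent cells, so these are not independent sightings.

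Of the 7 host genes of small RNAs, 1 was called after DOX (SNHG19) and 1 after RA (SNHG32). Among all genes 15.3% were called after DOX and 6.47% after RA, and among genes at the level 23.7% and 10.2%. With 7 genes, these counts cannot be told from those shares. SNHG17, the host of snoRNAs of the SNORA71 family, measured 8.21, 8.08 and 8.07 on DOX arrays and 8.12, 8.03 and 8.15 on RA arrays, against 8.12, 8.01 and 8.35 on pluripotent arrays. SNHG33 measured 8.11, 8.06 and 7.89 on DOX arrays and 8.09, 8.12 and 8.19 on RA arrays, against 8.10, 7.99 and 7.96 on pluripotent arrays. The groups overlapped for SNHG17, and its 95% interval after DOX ran from −0.24 to 0.16. That of SNHG33 ran from −0.17 to 0.18. MIR3936HG measured 5.75, 5.89 and 5.89 on DOX arrays and 5.91, 5.82 and 5.90 on RA arrays, against 5.91, 5.66 and 5.74 on pluripotent arrays, and was not called in any comparison.

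MIR210HG, the host of miR-210, which is known as a target of the hypoxia-inducible factor, differed between RA and DOX. It measured 5.05, 5.72 and 5.36 on DOX arrays and 5.94, 5.95 and 6.18 on RA arrays, against 6.03, 5.81 and 5.69 on pluripotent arrays. The RA arrays were above all DOX arrays, and the DOX and pluripotent arrays overlapped. RA was higher than DOX by 0.65 ± 0.15 (limma adjusted p = 0.011). The change after DOX, −0.47 ± 0.15, missed the threshold (limma adjusted p = 0.067), and it passed in 5 of 20 other settings. With single arrays left out it ran from −0.64 without the second DOX array (limma adjusted p = 0.013) to −0.30 without the first (limma adjusted p = 0.19). A second, dimmer probe set gave −0.49 after DOX and 0.60 between RA and DOX.

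MIR1915HG, the host of miR-1915, depended on the probe set. Its brightest probe set measured 7.53, 7.55 and 7.59 on DOX arrays and 7.61, 7.55 and 7.56 on RA arrays, against 7.52, 7.41 and 7.66 on pluripotent arrays. On it nothing was called, with a change of 0.04 after RA. The other 2 probe sets, nearly as bright, were called higher after RA by 0.60 and 0.67 (limma adjusted p = 0.027 and 0.024, each probe set tested alone), and the mean of all 3 gave 0.44. It was the only uncalled member with another probe set called after RA. SKIDA1, the neighbouring gene, rose by 0.64 after RA (limma adjusted p = 0.0029) and fell by 0.36 after DOX (limma adjusted p = 0.037).

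**Figure D5:**
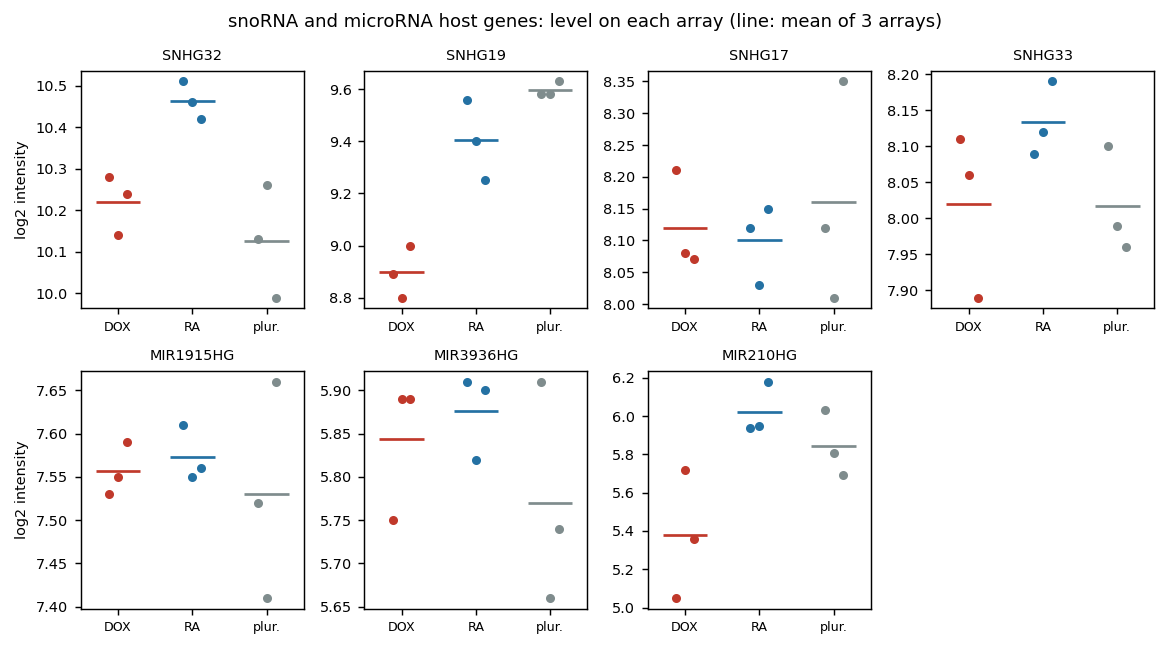
Log2 intensity of the 4 SNHG and 3 microRNA host genes on each DOX, RA and pluripotent array (points), with group means (lines). SNHG19 is called lower after DOX and SNHG32 higher after RA. MIR210HG differs between RA and DOX, with RA arrays above all DOX arrays.

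Few genes of the snoRNA and ribosome pathways were called, where 15.3% of all genes were called after DOX and 6.47% after RA. Of 12 measured core proteins of small nucleolar ribonucleoproteins, 1 was called after DOX, NOP58, a box C/D subunit, which rose by 0.26. After RA 0 were called, and 0 at an unadjusted p under 0.05. Of 52 ribosomal protein genes 0 were called after either treatment (limma), and 0 at an unadjusted p under 0.05, with medians of −0.04 after DOX and 0.01 after RA. Most of these 52 lay near the top of the scale, such as RPL41 at a mean of 14.7, where the highest value on any array was 14.84. Changes may be compressed there, so the absence of calls does not show that these RNAs were stable. Of 16 other messenger RNAs with a 5′ pyrimidine tract, 1 was called after DOX (VIM, 0.36) and 1 after RA (VIM, −1.30). Of 8 factors of nonsense-mediated decay 0 were called after either (limma), with 1 higher after DOX and 1 lower after RA at an unadjusted p under 0.05.

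Among the genes that make and use microRNAs, several fell after DOX. Of 11 measured genes, 4 fell and 1 rose, where 15.7% of genes at the level of 5.5 were lower and 7.96% higher. The median was −0.30, against −0.063 for genes at that level and −0.005 for all genes. AGO4, an Argonaute, averaged 7.22 ± 0.11 on DOX arrays, 7.99 ± 0.16 on RA arrays and 8.01 ± 0.16 on pluripotent arrays (SD, n = 3 each), a change of −0.79 after DOX (limma adjusted p = 0.00061). TNRC6A, a silencing partner of the Argonautes, changed by −0.51, AGO1 by −0.32 and DICER1 by −0.30. XPO5, which exports the hairpins from the nucleus, rose by 0.44. After RA, TARBP2, a partner of DICER1, fell by 0.32 and none of the other 10 was called.

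Among 25 measured long noncoding RNAs that have names of their own, 3 rose and 4 fell after DOX, with a median of −0.09. Among all genes 5.67% were higher and 9.6% lower after DOX. PURPL, known as a p53-induced RNA that lowers p53 levels, averaged 6.10 ± 0.14 on DOX arrays, 5.27 ± 0.27 on RA arrays and 4.61 ± 0.42 on pluripotent arrays (SD, n = 3 each), a rise of 1.5 after DOX (limma adjusted p = 0.00044). CYTOR rose by 0.30 and TP53TG1, another reported p53 target, by 0.28. RMST, known as a partner of SOX2 in neural differentiation, changed by −0.76 after DOX (limma adjusted p = 0.00076) and by −0.61 after RA (limma adjusted p = 0.0055). HCG11 fell by 0.82, DANCR by 0.48 and OIP5-AS1 by 0.28 after DOX. After RA, EPB41L4A-AS1 rose by 0.46, and MIAT fell by 0.63. The 76 members, which include none of these, had no rise after DOX that passed the test. The named RNAs include reported p53 targets and had no level filter, so their counts cannot be set against those of the members.

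The nearest measured protein-coding gene was compared with each member. Of the 17 RNAs lowered by DOX, 3 had a neighbour that was also lower and 0 a neighbour that was higher, namely LINC00938 with ARID2, LINC01896 with SALL3, and LINC00623 with SRGAP2C (−0.44, limma adjusted p = 0.022). Of the 59 members not called, 3 had a lower neighbour, and 9.6% of all genes and 15.7% of genes at the level were lower. Across the 76 pairs the Pearson correlation of the changes was 0.154 after DOX and 0.188 after RA, and the Spearman correlation was −0.00477 after DOX and 0.144 after RA, as a description over pairs that share the same arrays. The members lie on 22 chromosomes. Chromosome 19 held 5 of them, of which 3 were lowered by DOX, LINC00664, LINC00665 and LINC00662. Of the 71 members on other chromosomes 14 were lowered, and 15.7% of all genes at the level. The share of all chromosome 19 genes was not computed. The calls of LINC00665 and LINC00662 depended on the setting, as described, so nothing about the chromosome is concluded.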

How the data were processed

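The deposited table holds log2 values of 54675 probe sets on 9 arrays, which the authors made with RMA in the package affy, per the submitters' processing notes. No version is given in the sources used here. Its background correction compresses dim values, and its quantile step removes any shift that most genes share. The number of arrays limits the precision.

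Control probe sets (62) and those annotated to several genes (1801) or none (11721) were left out of the gene tests. Each of 19775 genes was represented by its probe set of highest mean over the 9 arrays. All 9 arrays entered 1 limma model with 3 groups (lmFit and eBayes, limma 3.58.1, R 4.3.3), with no filter on low values. A call needs an adjusted p (Benjamini-Hochberg) under 0.05. The fit was tested on simulated data. Members and lists were chosen with earlier results of these data known. The RNAs named are up to 12 each way for DOX and RA and 5 each way for RA against DOX, among called members with no overlap between the arrays compared, all host genes, the 5 brightest, 3 on each side of the level, and up to 4 per list. LINC00526, LINC00662 and the neighbouring genes were added after their values were seen, as were the lists' further called genes and the genes in the closing section. Sequences and biotypes come from RefSeq tables of GRCh38.p14, whose promoter table held 60 of the 76 members. The alternatives covered the choice of probe set, filters, spread model, scaling, array weights, the replicate block, single arrays left out and the level that defines members.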

Additional observations from a re-analysis of the deposited data

How the results depend on the processing

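After DOX the number of members called was 17 and ranged from 12 to 22 with single arrays left out, after RA it was 7 and ranged from 5 to 7, and between RA and DOX it was 18 and ranged from 15 to 21. Over all 19775 genes the lower calls after DOX moved too. They ran from 1129 to 2208 with single arrays left out, against 1898 with all 9. With a member level of 6.5, which leaves 32 members, 3 were called after RA and 11 between RA and DOX. Over all genes 6.47% and 21.2% were called in these comparisons. With a level of 4.5 there were 194 members, and 4 of them were called higher and 21 lower after DOX. Among all genes 5.67% were higher and 9.6% lower after DOX. LINC01128 turned to 0.01 after DOX as the mean of all its probe sets, and to 0.11 without the suffixes x_at and s_at. LINC03068, at 0.26 after DOX (limma adjusted p = 0.051), was called higher in 7 settings, at 0.26 to 0.31. Without the first pluripotent array LINC02604 was called higher, and without the third LINC02239 as well as LINC03068. The labels do not say whether the replicate numbers pair the arrays. Correlations of same-numbered arrays ran from −0.103 to 0.199 and were not compared with those of differently numbered arrays, so they cannot decide it. With the replicate block, 15 members were lower after DOX and 0 higher, 3 were higher and 4 lower after RA, and 14 were higher and 3 lower between RA and DOX. Over all 19775 genes, 1934 were lower and 1147 higher after DOX with that block. The cause of these differences was not tested.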

Other observations

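Several genes with such names lay below the level of 5.5 and were called. SNHG18, at a mean of 5.44, measured 4.95, 4.92 and 4.69 on DOX arrays and 5.57, 5.74 and 5.46 on RA arrays, against 5.94, 5.94 and 5.70 on pluripotent arrays, a change of −1.01 after DOX (limma adjusted p = 9e-05). SNHG4 changed by −0.45 after DOX (limma adjusted p = 0.0093). MIR205HG, the host of miR-205, measured 4.6, 4.44 and 4.42 on DOX arrays and 3.83, 3.82 and 3.99 on RA arrays, against 3.57, 3.44 and 3.39 on pluripotent arrays. Its rises of 1.02 after DOX (limma adjusted p = 1.5e-05) and 0.41 after RA (limma adjusted p = 0.011) lie among probe sets dimmer than the median one. MIR181A2HG, a host of miR-181, changed by −0.63 after RA (limma adjusted p = 0.012).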
